A study of Mus musculus with 47 samples.

Results

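The genes described here encode 5 subunits of the phagocyte NADPH oxidase, Cybb, Cyba, Ncf1, Ncf4 and Rac2. They were taken by symbol from the 20456 genes counted, all 5 were found, and all 5 passed the filter on low counts, which kept 16892 genes. The oxidase is the enzyme with which neutrophils, monocytes and macrophages turn oxygen into superoxide to kill engulfed microbes. Cybb and Cyba form its membrane-bound core, where Cybb carries the electrons and Cyba holds it stable. Ncf1 and Ncf4 are cytosolic subunits that move to the membrane on activation, and Rac2 is the small GTPase of blood cells that switches the assembled enzyme on. Near birth the fetal liver is a site of blood formation and holds many developing granulocytes, whereas lung and brain hold mainly resident macrophages and, in the brain, microglia.

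RNA was sequenced from liver, lung and brain of C57BL/6 embryos at E18.5 in 47 libraries of 12 groups. Embryos carried homozygous Daxx S226A, a substitution that removes the binding of the chaperone Daxx to histone H3.3, or homozygous Daxx Y130A, which removes its binding to Atrx, and each was compared with wild-type (WT) embryos of the same litters. Each group held 4 libraries, and the WT lungs of the Y130A litters 3, since the study removed a further WT lung as an outlier. The alleles were made by CRISPR editing of C57BL/6N zygotes and then backcrossed to C57BL/6J, and act in every cell, so that an effect within a tissue cannot be told apart from an effect of another tissue. A weak residual Atrx band was seen with the Y130A protein in some pull-downs of the study. The study also found more Daxx protein with Y130A and less with S226A, in embryonic fibroblasts and E18.5 lung, most clearly in fibroblasts. The part of the amount of Daxx in the results below was not tested. Gene counts cannot show these substitutions, so the genotypes rest on the labels.

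The libraries held 15722147 to 26190403 counted reads in the S226A litters and 36351738 to 54885020 in the Y130A litters, so low genes were counted more precisely in the latter. The tissues came from 17 embryos, and libraries of different tissues of an embryo are not independent. The WT lung of S226A litters replicate 4 came from another embryo than the WT liver and brain of that litter. Squamous epithelium markers (keratin genes and Trp63) stood apart in the WT liver of S226A litters replicate 2 and the Y130A liver replicate 1, where they summed to 1045 and 694 CPM (counts per 1000000 reads), against at most 10.3 CPM in the other livers, so the liver fits were also run without them. The labelled tissues carried their own markers, with hepatocyte genes such as Alb at 140465 to 206649 CPM in livers and at most 1202 CPM in other tissues, lung epithelium genes such as Sftpc at 6827 CPM or more in lungs and at most 21.1 CPM elsewhere, and neuron genes such as Tubb3 at 5104 CPM or more in brains and at most 41.4 CPM elsewhere.

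In GRCm38 coordinates Cybb lies on the minus strand at chrX:9435252-9487771 and Cyba on the minus strand at chr8:122424776-122432930. Ncf1 lies on the minus strand at chr5:134220053-134229625, and 408 of its 3663 exonic bases overlap Gtf2ird2 on the opposite strand. Whether the counting used strand was not stated, so reads in that overlap cannot be told apart. Ncf4 lies on the plus strand at chr15:78244801-78262580 and Rac2 on the minus strand of the same chromosome, at chr15:78559167-78572783. The 250 bases before the RefSeq start sites of Ncf1, Cyba and Cybb are shown, as the RefSeq promoter set used here held only these 3 of the 5 genes. The windows (build GRCm38.p6, all on the minus strand) lie at chr5:134229626-134229875, chr8:122432941-122433190 and chrX:9469325-9469574. They are written 5′ to 3′ in the direction of transcription, and capitals mark GGGCGG or its complement, the core of a GC box.
Ncf1: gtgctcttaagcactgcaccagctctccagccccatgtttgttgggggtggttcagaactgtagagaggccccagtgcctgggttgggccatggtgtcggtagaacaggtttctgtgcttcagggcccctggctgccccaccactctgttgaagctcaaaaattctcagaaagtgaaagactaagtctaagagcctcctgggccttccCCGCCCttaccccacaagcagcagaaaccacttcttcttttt
Cyba: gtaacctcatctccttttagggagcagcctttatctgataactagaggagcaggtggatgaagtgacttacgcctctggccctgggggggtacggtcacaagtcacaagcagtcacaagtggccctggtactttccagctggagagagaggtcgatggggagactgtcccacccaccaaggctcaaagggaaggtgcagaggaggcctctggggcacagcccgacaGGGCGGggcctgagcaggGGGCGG
Cybb: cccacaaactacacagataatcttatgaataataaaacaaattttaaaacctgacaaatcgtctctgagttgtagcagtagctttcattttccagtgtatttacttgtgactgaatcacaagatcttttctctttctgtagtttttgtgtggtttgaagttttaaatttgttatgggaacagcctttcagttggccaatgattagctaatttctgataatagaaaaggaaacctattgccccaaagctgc
Cyba held GGGCGG at bases 24 to 19 and 6 to 1 before the start, Ncf1 held it on the opposite strand at bases 42 to 37, and Cybb did not hold it. Of all 32851 RefSeq windows of this length, 32.7% held it on either strand. The letters GAGGAA, a core of sites for PU.1 (the product of Spi1), and TATAAA were in none of these 3 windows on either strand. They were in 23.3% and 12.4% of all windows. The shorter GGAA within GAGGAA can be read in all 3 windows when both strands are read, and its share over all windows was not counted. The GC content was 54.4% for Ncf1, 60% for Cyba and 34% for Cybb, against a median of 52.4%. The RefSeq start of Cybb lies inside the longer gene span of the GENCODE annotation.

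In WT embryos the mean level of all 5 genes was highest in liver and lowest in brain. CPM are scaled by the trimmed mean of M values (TMM), and levels are compared between genes as CPM per kilobase of exon. In the WT livers of the S226A litters Cyba led with 55.3 ± 3.96 (SD, n = 4) CPM per kilobase, followed by Ncf1 with 30.4 ± 3.61, Rac2 with 29.7 ± 0.900, Cybb with 23.6 ± 3.04 and Ncf4 with 17.7 ± 1.47. Within this order the libraries of Ncf1 and Rac2 overlapped, and the other neighbours did not. The order in the WT livers of the Y130A litters was the same, there with an overlap of Rac2 and Cybb. In WT lung Cyba led by a wider margin, at 48.6 ± 8.14 CPM per kilobase in the S226A litters, with Ncf1 at 13.2 ± 1.10, Cybb at 6.76 ± 1.89, Rac2 at 3.30 ± 1.31 and Ncf4 at 1.86 ± 0.571, where the libraries of Cybb and Rac2 and of Rac2 and Ncf4 overlapped. In WT brain Cyba was at 4.14 ± 0.371 CPM per kilobase, and Cybb, last in the order there, at 0.115 ± 0.0455, with libraries that overlapped those of Ncf4.

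In the WT embryos of the S226A litters Ncf4 was 9.45 times and Rac2 9.01 times higher in liver than in lung, Cybb 3.49 times and Ncf1 2.31 times, all with an adjusted p of at most 9.56e-14 (edgeR quasi-likelihood test, Benjamini-Hochberg adjustment, as for all adjusted p below). For Cyba the liver was 1.14 times the lung, with an adjusted p of 0.0814, and in the Y130A litters 1.21 times, with an adjusted p of 0.0168. That last call was lost with size factors (RLE, adjusted p = 0.0898), with DESeq2 (0.0828) and in 3 of 7 leave-one-out fits, without the WT liver of Y130A litters replicate 1 (0.108) or 4 (0.0515) or their WT lung replicate 2 (0.0506). In the S226A litters, Cyba was called without the WT lung replicate 1 (adjusted p = 0.0110). Thus 4 of 5 genes differed between liver and lung in the S226A litters, or 5 of 5 without that library. In the Y130A litters 5 of 5 differed, or 4 of 5 under the alternatives above that lost Cyba. Of all tested genes 73.7% differed in the S226A litters and 73.3% in the Y130A litters. From lung to brain all 5 fell in both sets of litters, by 59.2-fold for Cybb and 11.7-fold for Cyba in the S226A litters (78.7% and 76.9% of all genes differed). Between liver and brain 5 of 5 differed in both sets (82.5% and 83.3% of all genes), by 207-fold for Cybb and 13.4-fold for Cyba in the S226A litters. In brain these genes rested on few reads, for Ncf4 on 5 to 11 reads per WT library of the S226A litters.

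**Figure D1:**
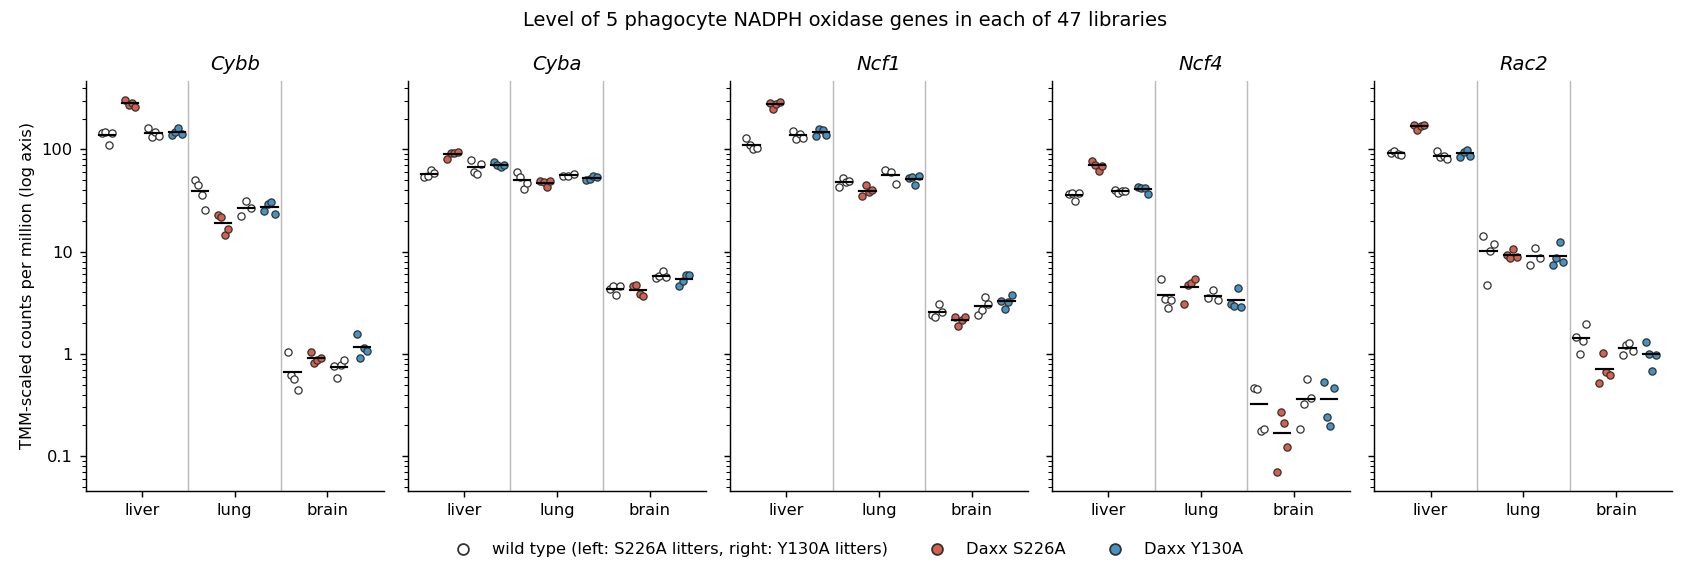
TMM-scaled CPM of each gene in each of the 47 libraries, on a log axis, by tissue. Open points are wild type, red points Daxx S226A, blue points Daxx Y130A, and bars are group means. The red liver points lie above all other liver points for every gene, and the red Cybb points in lung lie below all WT points of their litters.

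In S226A livers the RNA of all 5 oxidase genes rose, between 1.57-fold for Cyba and 2.48-fold for Ncf1. All 5 passed the test, in which 6.14% of all tested genes were called higher (adjusted p below 0.05), and for all 5 the mutant and WT libraries did not overlap, which held in this direction for 6.7% of all genes. The median log2 fold change of the 5 was 0.97, and that of all genes -0.01. The same 5 were called without the squamous WT library and in each leave-one-out fit. Bulk RNA cannot tell more cells that express these genes apart from more RNA per cell.

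Cybb, the electron-carrying subunit, stood at 307, 272, 285 and 262 CPM in the S226A livers of replicates 1 to 4 and at 144, 148, 111 and 146 CPM in their WT littermates. Every mutant liver exceeded every WT liver, and the lowest mutant value was well above the highest WT value. The means were 282 ± 19.3 and 137 ± 17.6 CPM (SD, n = 4 each), a log2 fold change of 1.04 (SE 0.14, edgeR adjusted p = 1.08e-06).

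Cyba, its membrane partner, stood at 81.1, 93.2, 92.9 and 93.5 CPM in the S226A livers and at 53.5, 55.1, 62.7 and 58.7 CPM in the WT livers. The groups did not overlap, although replicate 1 of the mutants lay below the other 3. The log2 fold change was 0.65 (SE 0.10, edgeR adjusted p = 4.96e-06), the smallest of the 5.

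Ncf1, the organizer that brings the cytosolic subunits to the membrane, stood at 286, 251, 276 and 293 CPM in the S226A livers and at 130.3, 110.2, 101 and 103 CPM in the WT livers. The gap between the groups was the widest of the 5 genes in relative terms. The log2 fold change was 1.31 (SE 0.10, edgeR adjusted p = 1.14e-12). With Cybb it was 1 of the 2 genes that also met the stringent criteria (adjusted p below 0.01, more than 2-fold, standard error below 1), which 1.26% of all genes met in this direction.

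Ncf4, which binds a phosphoinositide of the phagosome membrane, stood at 76.8, 71.2, 62.0 and 69.5 CPM in the S226A livers and at 36.3, 37.2, 31.3 and 37.9 CPM in the WT livers, a log2 fold change of 0.97 (SE 0.19, edgeR adjusted p = 0.000269). Rac2 stood at 174, 154, 169 and 174 CPM in the S226A livers and at 92.1, 95.8, 90.9 and 89.2 CPM in the WT livers, a log2 fold change of 0.87 (SE 0.17, edgeR adjusted p = 0.000416). For both genes the mutant libraries lay above all WT libraries. Within litters, each of the 5 genes was higher in the mutant in 4 of 4 litters.

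**Figure D2:**
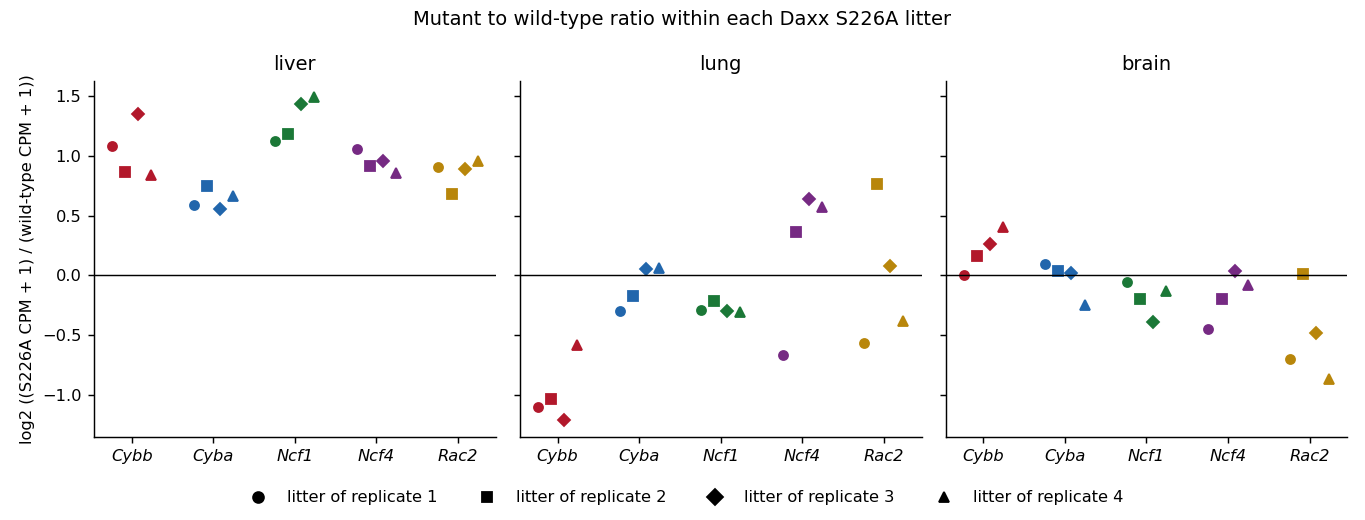
Log2 ratio of the S226A to the WT embryo of a litter, with 1 CPM added to both, for each gene and tissue. Each symbol is a litter. All 20 liver points are above 0, Cybb and Ncf1 in lung are below 0 in all 4 litters, and the added CPM shrinks the brain ratios.

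In S226A lungs Cybb fell while the other subunits did not pass the test. Cybb stood at 23.0, 21.6, 14.7 and 16.8 CPM in the S226A lungs and at 50.6, 45.3, 35.5 and 25.7 CPM in the WT lungs of replicates 1 to 4. The groups did not overlap, with WT replicate 4 closest to the mutants, and the mutant was lower in 4 of 4 litters. The means were 19.04 ± 3.92 and 39.3 ± 10.98 CPM (SD, n = 4 each), a log2 fold change of -1.05 (SE 0.15, edgeR adjusted p = 2.29e-05), which also met the stringent criteria. Of all genes, 1.02% were called lower in this comparison, 0.154% met the stringent criteria in this direction, and in 1.72% the mutant libraries all lay below the WT libraries.

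Between the WT embryos of the S226A and Y130A litters, 1 of the 5 genes was called in each tissue, with 13.1% of all genes called in liver, 20.1% in lung and 5.98% in brain. Ncf1 was 1.24-fold lower in WT livers (edgeR adjusted p = 0.0365) and Cyba 1.36-fold lower in WT brains (0.0124) of the S226A litters. The Cybb level in WT lungs was 26.7 ± 4.67 CPM (SD, n = 3) in the WT lungs of the Y130A litters, 1.47-fold below that of the S226A litters (edgeR adjusted p = 0.00987). When only the 8 lung libraries of the S226A litters were fitted, the log2 fold change was -1.06 with an adjusted p of 0.122, and Cybb was no longer called. With litter as a block, 2 genes were called lower, Cybb and Ncf1. That fit called 270 of all 16892 genes lower and 342 higher, against 173 and 144 without the block.

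Ncf1 stood at 34.9, 44.9, 38.8 and 40.0 CPM in the S226A lungs and at 42.8, 52.4, 47.9 and 49.6 CPM in the WT lungs. The groups overlapped, yet the mutant was lower in 4 of 4 litters. The log2 fold change was -0.28 (edgeR adjusted p = 0.148, and 0.0393 with litter as a block). For Cyba it was -0.10, with a 95% interval of -0.30 to 0.09, for Rac2 -0.12 (-0.51 to 0.26) and for Ncf4 0.27 (-0.17 to 0.71). Rac2 was the most variable in the WT lungs, from 4.67 CPM in replicate 2 to 14.2 CPM in replicate 1.

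In S226A brains none of the 5 genes passed the test, in which 0.243% of all genes were called (41 by edgeR). Rac2 was at 0.525, 1.01, 0.669 and 0.620 CPM in the S226A brains, or 15 to 26 reads, and at 1.47, 0.999, 1.34 and 1.96 CPM in the WT brains, or 24 to 53 reads. The groups overlapped through replicate 2, and the log2 fold change was -1.04 (SE 0.30), with an edgeR adjusted p of 0.319 and an unadjusted value of 0.00142. It was the only gene of the 5 with an unadjusted p below 0.05 there. DESeq2 called Rac2, with an adjusted p of 0.0467, and called 66 of 20417 genes in this comparison. For Ncf1 the S226A brains, at 1.87 to 2.27 CPM, all lay below the WT brains, at 2.29 to 3.10 CPM (1.24% of all genes were so ordered), with a log2 fold change of -0.28 and an adjusted p of 1. Cybb, at 12 to 30 reads per library, had a log2 fold change of 0.47 with a 95% interval of -0.16 to 1.11, and for Ncf4, at 2 to 11 reads, a change was not detectable at this depth (-0.89, interval -1.87 to 0.09).

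**Figure D3:**
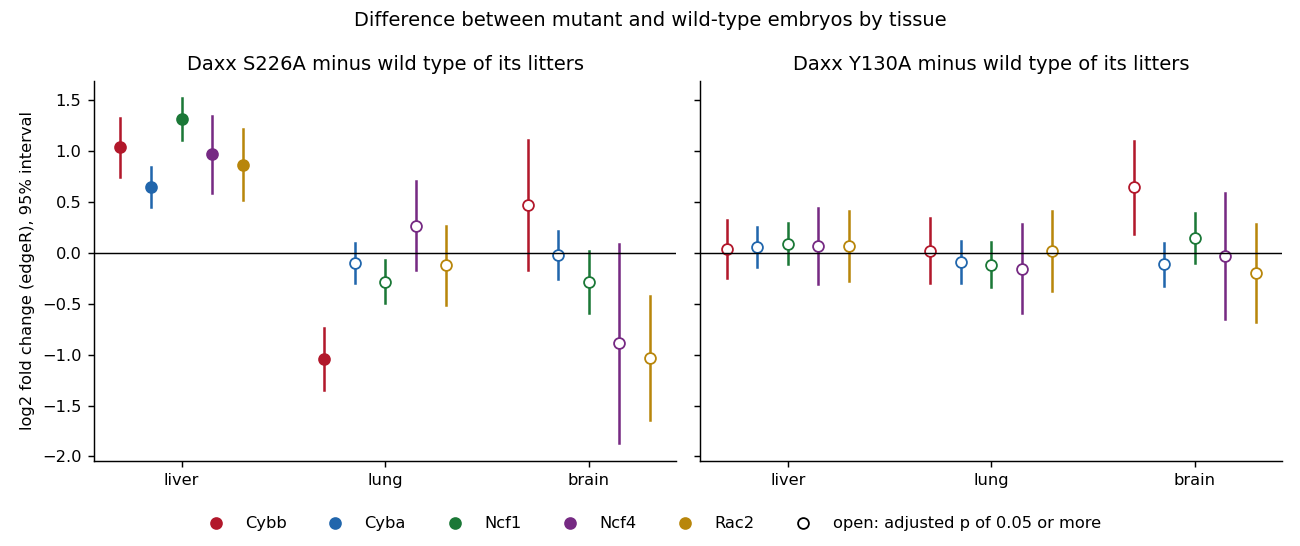
Log2 fold change of each gene with its 95% interval from edgeR, mutant minus wild type of its litters, by tissue, with S226A at left and Y130A at right. Filled points have an adjusted p below 0.05. All 5 genes in S226A liver and Cybb in S226A lung are filled, and no Y130A point is.

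In Y130A embryos none of the 5 genes was called in any tissue by edgeR or DESeq2. Of all genes, edgeR called 0.272% in liver, 0.0178% in lung and 0.00592% in brain, which are 46, 3 and 1 genes, and DESeq2 called 299, 18 and 6. In Y130A livers the log2 fold changes of the 5 genes lay between 0.04 and 0.09. Cybb stood at 137, 148, 161 and 143 CPM in the Y130A livers and at 161, 131, 147 and 134 CPM in their WT littermates, and the 95% interval of its log2 fold change was -0.25 to 0.33. For Ncf1 the interval was -0.11 to 0.29, for Cyba -0.13 to 0.25, for Ncf4 -0.30 to 0.44 and for Rac2 -0.28 to 0.41. All 5 intervals end below the log2 fold change of the same gene in S226A livers.

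In Y130A lungs the 5 log2 fold changes lay between -0.15 and 0.02. The Cyba levels of the Y130A lungs, at 50.2 to 54.8 CPM, did not reach above those of the WT lungs, at 54.8 to 57.7 CPM, with a log2 fold change of -0.09 (2.55% of all genes did not overlap in this direction). In Y130A brains Cybb stood at 1.55, 0.917, 1.15 and 1.08 CPM and in the WT brains at 0.757, 0.584, 0.784 and 0.880 CPM. The groups did not overlap, which held in this direction for 2.66% of all genes, and the mutant was higher in 4 of 4 litters. The log2 fold change was 0.64 (SE 0.23), with an edgeR adjusted p of 1 and an unadjusted value of 0.00704. The counts behind it were 34 to 79 reads per library. No other of the 5 genes had an unadjusted p below 0.05 in a Y130A tissue.

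The effects of the 2 substitutions were compared directly, as the S226A effect minus the Y130A effect in the same fit. In liver all 5 genes differed, with 5.9% of all genes called in either direction. The difference on the log2 scale was 1.00 for Cybb (edgeR adjusted p = 0.00127), 0.59 for Cyba (0.00540), 1.22 for Ncf1 (1.39e-07), 0.90 for Ncf4 (0.0297) and 0.80 for Rac2 (0.0391). The calls of Ncf4 and Rac2 lay close to the threshold. Rac2 was not called in 13 of 16 leave-one-out fits (adjusted p up to 0.0762, differences of 0.75 to 0.82), with RLE size factors (0.0508) or without the squamous livers (0.0803). Ncf4 was not called in 3 of 16 leave-one-out fits (up to 0.0630, differences of 0.84 to 0.85) or with litter as a block (0.0595). In lung Cybb was called (-1.07, adjusted p = 0.0145), with 0.308% of all genes, but not when only the lung libraries were fitted (0.315) or without the WT lung of Y130A litters replicate 1 (0.0835). In brain none was called, with 0.0829% of all genes called by edgeR, and Ncf1 and Rac2 had unadjusted p below 0.05.

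The S226A effect also differed between tissues. From liver to lung it differed by 2.08 on the log2 scale for Cybb (edgeR adjusted p = 3.30e-09), the gene that rose in liver and fell in lung. The difference was 1.59 for Ncf1 (2.76e-10), 0.99 for Rac2 (0.0120) and 0.75 for Cyba (0.000238), and for Ncf4 it was 0.70 with an adjusted p of 0.138 (6.9% of all genes were called). Rac2 was not called when only the libraries compared were fitted (0.0727). Between liver and brain it differed for Cyba by 0.67, for Ncf1 by 1.60 and for Rac2 by 1.90 (3.71% of all genes), and for Cybb by 0.57 with an adjusted p of 0.485. Ncf4 differed by 1.86 (0.0320), but it rested on 2 to 11 reads per brain library and did not pass the filter on low counts when only the brain libraries of these litters were fitted. It was not called with litter as a block (0.104) or without the WT brain replicate 1 (0.129) or 2 (0.122) or the S226A brain replicate 1 (0.112) or 4 (0.0771) of these litters. Between lung and brain no gene was called by edgeR (0.124% of all genes), where Cybb differed by -1.52 with an adjusted p of 0.0640, and 3 of 5 had an unadjusted p below 0.05. There Cybb was called with litter as a block (0.0273) and by DESeq2 (0.00154). These tests were added after the data were seen.

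The make-up of the transcripts was followed with ratios taken within each library. Rac2 has the close relatives Rac1, which is used in most cells, and Rac3, which is used in the nervous system. In S226A livers 50.5%, 47.6%, 48.9% and 50.4% of Rac reads came from Rac2, against 33.6% to 35.96% in the WT livers, with means of 49.3% ± 1.36 and 35.1% ± 1.03 (SD, n = 4 each). The groups did not overlap (two-sided exact permutation p = 0.0286, the smallest possible with 4 against 4, and 0.0857 adjusted over 12 ratio tests). The level of Rac1 was 172 ± 3.13 CPM in these S226A livers and 169 ± 4.67 CPM in the WT livers, so the share moved with Rac2. In lung the share was 3.50% ± 0.461 in S226A and 3.64% ± 1.34 in WT, and in brain 0.224% ± 0.0726 and 0.434% ± 0.114.

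The 2 membrane subunits did not keep a fixed ratio of reads. The log2 ratio of Cybb to Cyba reads was 1.64 ± 0.19 in S226A livers and 1.25 ± 0.29 in their WT littermates, and -1.32 ± 0.24 in S226A lungs against -0.39 ± 0.31 in theirs. The groups did not overlap in either tissue, in opposite directions (two-sided exact permutation p = 0.0286 each, adjusted 0.0857). In Y130A brains the ratio was -2.20 ± 0.43 against -2.94 ± 0.27, with the same p values. None of the 12 ratio tests was below 0.05 after adjustment, which this design could reach only if more of them were at the smallest p.

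**Figure D4:**
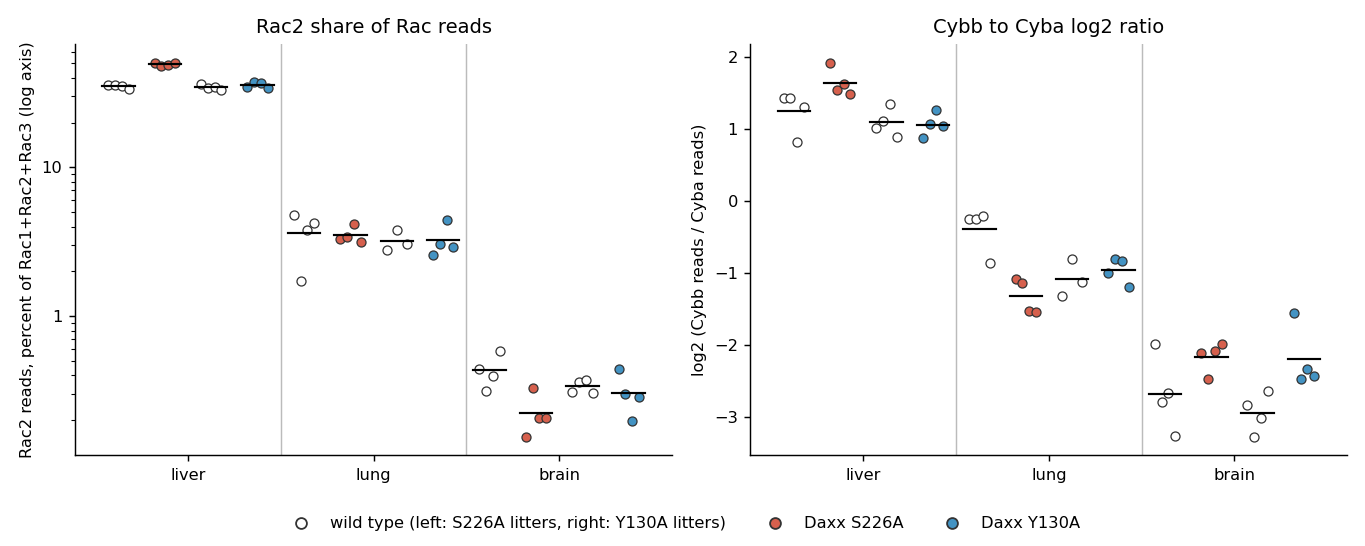
Percent of Rac1, Rac2 and Rac3 reads that came from Rac2 (left, log axis) and log2 ratio of Cybb to Cyba reads (right) in each library. Open points are wild type, red S226A, blue Y130A, bars are means. The red points stand above the WT points of their litters in liver in both plots and below them in lung for Cybb to Cyba.

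Genes that act with the oxidase were examined as a list of 16 regulators. In S226A livers 11 of 16 were called higher and 0 lower, against 6.14% and 5.54% of all genes, with a list median of 0.53 on the log2 scale against -0.01 for all genes. Cybc1, needed for a stable membrane core, rose by a log2 fold change of 0.26. Arhgdib, which holds Rac proteins in the cytosol, rose by 1.13, and the Rac exchange factors Vav1, Vav3 and Dock2 rose by 0.73, 0.47 and 0.59. The voltage-gated proton channel Hvcn1, which balances the charge moved by the oxidase, rose by 0.70, the kinases and kinase subunits Pik3r5, Prkcd, Pik3cd and Pik3cg by 1.01, 0.65, 0.64 and 0.47, and the adaptor Tyrobp by 0.59. The libraries of Pik3cg overlapped between the groups. Without the squamous livers 9 of 16 were called, with Cybc1 and Pik3cg lost.

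In S226A lungs none of the 16 regulators was called higher and 2 were called lower, Hvcn1 (log2 fold change -1.06) and the Rac exchange factor Prex1 (-0.42), against 0.852% and 1.02% of all genes. With litter as a block 4 of the 16 were called in lung, all lower, and with only the lung libraries fitted 0. Over all genes these fits called 270 and 18 lower. In S226A brains 0 were called higher and 3 lower, Vav1 (-1.06), Tyrobp (-1.01) and Dock2 (-0.86), against 0.0592% and 0.184% of all genes, and 0 were called with only the brain libraries fitted. The list medians were -0.22 in lung and -0.10 in brain. DESeq2 called 4 of the 16 in lung and 3 in brain, all lower, where it called 397 and 42 of 20417 genes lower. In the Y130A comparisons none of the 16 was called by edgeR or DESeq2, and 2 had an unadjusted p below 0.05 in liver and 0 in lung and brain.

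Of 12 tested genes of the other NADPH oxidases and Rac relatives, 2 were called higher and 1 lower in S226A livers, against 6.14% and 5.54% of all genes. The higher genes were Rhog (0.41), a Rac-like GTPase, and Noxa1 (1.19, adjusted p = 0.0476, groups overlapping), an activator of Nox1. Duox1, an epithelial oxidase, was called lower, but its reads were 0 in all S226A livers and in WT livers came up to 52 in replicate 2, the squamous library, and it was not called without the squamous livers or with litter as a block. With only the liver libraries fitted Rhog alone was called. Rac1 had a log2 fold change of 0.02 and Rac3 of -0.75, neither called, Rac3 on at most 15 reads per WT liver. In S226A lung and brain no gene of this list was called by edgeR or DESeq2, with 2 and 0 at an unadjusted p below 0.05. In the Y130A comparisons edgeR called none, with 4 in liver, 1 in lung and 0 in brain at an unadjusted p below 0.05, and DESeq2 called 1, in liver. Noxo1, the organizer of Nox1, had the lowest of these p values (0.000334, adjusted 0.0733), at 0.850 to 1.11 CPM in Y130A livers and 1.41 to 2.15 CPM in WT livers, and was chosen after its values were seen.

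Of 15 genes that handle oxidants, 3 were called higher and 1 lower in S226A livers, against 6.14% and 5.54% of all genes. Mpo, the neutrophil granule enzyme that uses the peroxide made from superoxide, rose there with a log2 fold change of 1.52, Nqo1, a quinone reductase, with 1.31, and Prdx5, a peroxiredoxin, with 0.45. DESeq2 did not call Mpo. Hmox1, which breaks down haem, fell by 0.61 on the log2 scale in S226A livers and rose by 0.82 in lungs and 0.58 in brains, where it was the 1 gene of this list called (0.852% and 0.0592% of all genes were called higher). In brain its libraries overlapped, and it was not called with litter as a block or with only the brain libraries fitted. In lung Sod3 was also called, lower, with litter as a block and by DESeq2. Of 11 transcription factors tied to these genes 2 were called higher in S226A livers, Cebpe, needed for late granulocyte development (1.62), and Spi1, the myeloid ETS factor (0.88), against 6.14% of all genes. Cebpe was also the 1 factor called in S226A lungs by edgeR, against 0.852% of all genes, but not with only the lung libraries fitted. It stood at 0.513 to 0.652 CPM against 0 to 0.141 CPM in WT, or at most 14 and 3 reads. DESeq2 called 2 of the 11 factors in S226A lungs and 1 in brains, with 647 and 66 of all genes called.

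Neutrophil, granulocyte precursor and pan-leukocyte markers rose with the oxidase genes in S226A livers, while other blood cell lists fell, were mixed or not called. There 6.14% of all genes were called higher and 5.54% lower. All 13 neutrophil markers were called higher, with a median log2 fold change of 1.33, and their summed level was 8670 to 9443 CPM in S226A livers and 3029 to 3717 CPM in WT livers. All 7 granulocyte precursor markers were called higher (summed level 591 to 746 CPM against 237 to 256 CPM). So were 7 of 8 pan-leukocyte markers (1010 to 1106 CPM against 641 to 653 CPM). Of the 6 monocyte markers 3 were called higher and Ly86 lower. All 6 together summed to 317 to 344 CPM against 144 to 175 CPM. Macrophage markers went the other way, with 13 of 14 called lower, a summed level of 374 to 523 CPM against 1277 to 1453 CPM, and Vsig4 at 0 in all S226A livers. B lineage markers were lower for 3 of 6, and for 2 without the squamous livers. Hepatocyte markers summed to 140465 to 163360 CPM in S226A livers and 167004 to 170916 CPM in WT livers. In the fits of all libraries none of the 5 was called by edgeR or DESeq2, and none of 6 erythroid markers was called by either. None of these 11 genes had an unadjusted p below 0.05. The same held for the 7 T and NK markers and the 6 eosinophil and mast cell markers. The part of these cells in the oxidase result was not tested.

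In S226A lungs, where 0.852% of all genes were called higher and 1.02% lower, neutrophil markers were higher (8 of 13, summed level 197 to 258 CPM against 85.3 to 133 CPM), while 4 of 8 pan-leukocyte markers, Coro1a, Fermt3, Itgb2 and Laptm5, were lower and none higher, at 104 to 122 CPM against 142 to 197 CPM. Of the macrophage markers 4 of 14 were called lower, among them Csf1r and Adgre1, and 2 higher, and of the microglia markers 3 of 8 lower. The B lineage marker Pax5, the monocyte marker Ccr2 and the eosinophil marker Ear2 were also lower there. With only the lung libraries fitted 5 neutrophil markers were called, 1 pan-leukocyte marker, 2 macrophage markers, both lower, 2 microglia markers and none of the last 3 lists. In S226A brains, with 0.0592% of all genes called higher and 0.184% lower, 5 of 14 macrophage markers were called lower and 1 higher, 4 of 8 microglia markers lower, as were Laptm5 and the monocyte marker Ly86, and 2 of 13 neutrophil markers higher, or 1 with only the brain libraries fitted. Microglia markers summed to 17.2 to 20.6 CPM there, against 38.2 to 50.4 CPM in WT. Their part in the fall of Cybb in lung was not tested either. In the Y130A comparisons none of the 103 tested markers of all lists was called by edgeR, with 6 in liver, 5 in lung and 5 in brain at an unadjusted p below 0.05, and DESeq2 called 1, in liver.

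**Figure D5:**
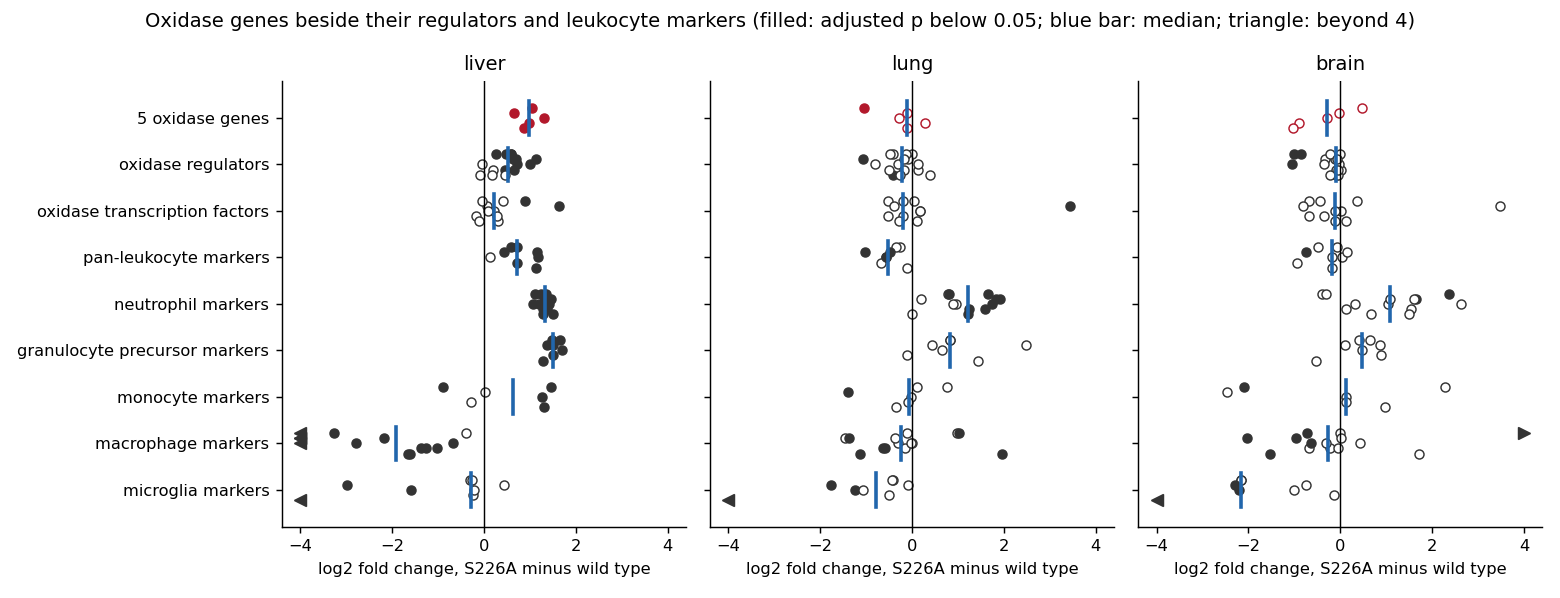
Log2 fold change of the 5 oxidase genes (red) and of the genes in 8 lists in S226A liver, lung and brain, each point a gene, filled where the adjusted p is below 0.05, with the median as a blue bar and values beyond 4 drawn as triangles at the edge. The oxidase genes lie beside the neutrophil and pan-leukocyte markers in liver, and in lung Cybb lies to the left while neutrophil markers lie to the right.

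The genes with the most similar levels over the 47 libraries were sought by Pearson's r of log2 (CPM + 1), given as a description. The points share tissues and embryos and are not independent. For Cybb it was Itgb2, the integrin chain shared by leukocytes (r = 0.997), then Myo1g and Naip2. For Cyba it was Lcp1 (r = 0.995), Arpc1b and Gmfg, for Ncf1 Cmtm7 (r = 0.993), Ptpn6 and Naip2, for Ncf4 Clec12a (r = 0.994), Cd177 and Was, and for Rac2 Dock2 (r = 0.994), Cd177 and Pnpla7. With each tissue's mean removed, Itgb2 stayed first for Cybb (r = 0.852, then Sla and Olr1). Arpc1b was then first for Cyba (r = 0.828, then Arhgdib and Sh3bgrl3), and Capg for Ncf1 (r = 0.871, then Pxylp1 and Cotl1). G6pdx, which makes NADPH, was first for Ncf4 (r = 0.793, then Lin28a and Serpinb1a) and Atp2a3 for Rac2 (r = 0.763, then Dock2 and Rap1gap2). Among the 5 genes themselves r was 0.848 to 0.994 over all libraries and 0.387 to 0.705 with tissue means removed, highest in both cases for Ncf4 with Rac2.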

How the data were processed

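The deposited table holds raw counts of reads per gene that the authors made with STAR 2.6.0b on GRCm38, per the labels, after Trim Galore 0.6.5 and FastQC 0.11.5. Gene names and positions came from GENCODE M21, which matched 20424 of 20456 rows. Whether the counting used strand was not given in the sources used here. Counts of all 47 libraries were fitted with edgeR 4.0.16 (R 4.3.3) by the quasi-likelihood test with 1 coefficient per group, TMM scaling and edgeR's default removal of low genes (at least 10 reads in enough libraries and 15 in all), and p values were adjusted by Benjamini-Hochberg over 16892 genes. Genes were called at an adjusted p below 0.05. The script was tested on simulated counts. Ratios were compared by two-sided exact permutation.

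Litters are named in the labels and pair the embryos. Of 23 littermate pairs 18 had residuals with r above 0.1 (median 0.21, and -0.06 in 69 other pairs), and litter as a block was an alternative. In that fit the Y130A lung replicate 4 has no WT littermate and adds nothing. The others were size factors (RLE), DESeq2 1.42.0, no filter, only the libraries compared, stringent criteria and leaving out libraries. No replicates were copies (lowest chi-square per degree of freedom 4.09). The 5 genes and the gene lists were chosen with earlier results of these data known. The rule for names was all 5 genes, each called gene of the regulator, oxidase, oxidant and transcription factor lists, and the 3 most similar genes. The RefSeq promoter set used held 3 of the 5. Few reads per gene limit the precision of the brain values. Some results that were computed are not reported here.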

Additional observations from a re-analysis of the deposited data

Results flagged for a closer look

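Among 77 groups of 4 libraries, 5 held a library far from the other 3 by Dixon's test, and chance flags about 1 in 20 groups. Cybb was lowest in the WT liver of S226A litters replicate 3 at 111 CPM, and Cyba in the S226A liver replicate 1 at 81.1 CPM. Ncf4 was highest in the Y130A lung replicate 3 at 4.41 CPM. The log2 ratio of Cybb to Cyba was lowest in the WT lung of S226A litters replicate 4 at -0.86 and highest in the Y130A brain replicate 1 at -1.56.

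The effect of S226A differed from that of Y130A in liver by 1.00 for Cybb, 0.59 for Cyba, 1.22 for Ncf1, 0.90 for Ncf4 and 0.80 for Rac2 on the log2 scale, and in lung by -1.07 for Cybb (edgeR, adjusted p below 0.05). The S226A effect in liver exceeded that in lung by 2.08 for Cybb, 0.75 for Cyba, 1.59 for Ncf1 and 0.99 for Rac2, and that in brain by 0.67 for Cyba, 1.60 for Ncf1, 1.86 for Ncf4 and 1.90 for Rac2, with at most 11 Ncf4 reads per brain library.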

How the results depend on the processing

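Low read counts limited the brain values, where Cybb and Ncf4 had at most 30 and 11 reads per library in the S226A litters. The 5 genes in S226A liver were called under every alternative at an adjusted p below 0.05, and under the stringent criteria 2 were. In S226A lung the 1 call became 2 with litter as a replicate block and 0 with only the libraries compared, and in S226A brain the 0 became 1 with DESeq2. For the difference between S226A and Y130A, the stringent criteria left 1 of 5 in liver and 0 in lung, and fitting only the libraries compared left 0 in lung. Leaving out single libraries gave 3 to 5 in liver, with 3 without the WT liver of S226A litters replicate 3, the S226A liver replicate 1 or the Y130A liver replicate 4, and 0 to 1 in lung, with 0 without the WT lung of Y130A litters replicate 1. Of the genes whose S226A effect differed between tissues, the stringent criteria left 2 for liver against lung and 2 for liver against brain. Leaving out libraries gave 3 to 4 for liver against brain and 0 to 1 for lung against brain, with 1 without the WT lung replicate 4, the S226A lung replicate 1 or the WT brain replicate 1 of these litters. For lung against brain the block and DESeq2 gave 1. The block moved no other count of the 5 genes by more than 1.5 times. Over all genes it moved the calls in S226A lung from 144 to 342 higher and from 173 to 270 lower, in Y130A liver from 46 to 98 and in the lung difference between the mutants from 52 to 124. Fitting only the libraries compared called fewer genes in most cases. In the S226A livers it gave 761 higher and 369 lower (1037 and 935 in the fit of all libraries), for the S226A lungs 34 against 317, for Y130A livers 5 against 46, for Y130A lungs 0 against 3 (412 at an unadjusted p below 0.05, 18 by DESeq2) and for Y130A brains 4 against 1. Between the mutants it gave 508 against 997 in liver and 12 against 52 in lung, and for the S226A effect 420 against 1165 from liver to lung and 7 against 21 from lung to brain.

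No called difference changed direction under any alternative. Directions turned only for uncalled differences near 0. The difference between the mutants for Cyba in lung was 0.011 with the block. The lung against brain difference of Ncf1 became -0.014 with RLE size factors, -0.0073 with the block, -0.011 with only the libraries compared, -0.013 with DESeq2 and -0.0047 without the filter. Leaving out single libraries gave log2 fold changes from -0.37 to 0.081 for Rac2 in S226A lung and from -0.080 to 0.038 for Cyba in S226A brain. In Y130A it gave -0.0048 to 0.10 for Cybb and -0.0085 to 0.15 for Cyba in liver, -0.10 to 0.16 for Cybb and -0.17 to 0.19 for Rac2 in lung, and -0.28 to 0.27 for Ncf4 in brain. For the difference between the mutants it gave -0.12 to 0.084 for Cyba and -0.39 to 0.061 for Rac2 in lung, and -0.33 to 0.11 for Cybb in brain. For lung against brain it gave -0.19 to 0.014 for Cyba and -0.10 to 0.059 for Ncf1. The difference in the Rac2 share ranged from -0.774 to 0.246 percentage points in S226A lung, -0.366 to 0.315 in Y130A lung and -0.0758 to 0.00423 in Y130A brain, and that of the log2 Cybb to Cyba ratio in Y130A liver from -0.10 to 0.057. The cause was not tested for any of these.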
